A study of Mus musculus with 36 samples.

Results

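DNA replication and nucleotide supply genes are described here in RAW 264.7, a macrophage-like mouse cell line, after exposure to lipopolysaccharide (LPS, the outer envelope glycolipid of Gram-negative bacteria, which activates macrophages through Toll-like receptors), to melatonin (the pineal hormone, given here as a drug), or to both. The set holds 50 genes of 53465 in the gene table, taken by symbol: factors that license replication origins, the replicative helicase, the sliding clamp and its loader, the polymerases and primase, single-strand binding and strand-joining proteins, enzymes that supply or clean up DNA precursors, chromatin factors of the fork, and the cyclins and E2F factors that drive entry into S phase. All 50 symbols were found, each once. The bulk RNA sequencing covered 36 libraries, 3 in each of 12 groups: LPS at 10 µg/mL, LPS with melatonin at 0.1, 1, 10 or 100 µM or at 1 mM, melatonin alone at the same 5 doses, and solvent alone. Cells that received both agents had melatonin for 30 min before LPS was added, and cells of every group were collected after 12 h of treatment. All cells carried the wild-type genotype of the line, and the labels do not say whether replicates are separate cultures. The p-values therefore reflect the spread among the sequenced replicates, some or all of which may be technical.

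Replication begins at origins that are marked in G1 by the origin recognition complex, Cdc6 and Cdt1, which load the ring-shaped Mcm2-7 helicase onto DNA. In S phase the helicase is activated by Cdc45 and the GINS complex, primase and DNA polymerases copy the strands behind it while the clamp Pcna holds the polymerases in place, and ribonucleotide reductase, thymidylate synthase and related enzymes make the deoxynucleotides that are consumed. Most of these genes are known targets of E2F transcription factors and are transcribed most in late G1 and S phase, so their level in a culture is commonly read as a sign of how many cells are cycling. Activated macrophages are known to slow their cell cycle.

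The libraries held 4203313 to 7590271 counted reads, with a median of 6649254. Levels are given as CPM, counts scaled to a common library size with TMM factors and expressed per 1000000. A count of 0 in a library allows a level of up to 0.395 to 0.714 CPM, the worth of 3 counts, which covers counting error only. Macrophage genes were present in every group (Lyz2 averaged 1388 to 10290 CPM over the 12 groups and Csf1r 1219 to 5057 CPM), whereas lists of 4 markers each summed in any library to at most 1.21 CPM for T cells, 1.36 CPM for B cells, 1.67 CPM for epithelial cells and 6.84 CPM for fibroblasts. A pair of libraries stood apart from their labelled groups in the level of the 50 genes. The library labelled replicate 3 of 1 mM melatonin alone had a summed level of the 50 genes of 3048 CPM, against 1669 and 1758 CPM in the other libraries of that group, and a summed level of 10 macrophage markers of 12060 CPM, against 5302 and 5171 CPM. The library labelled replicate 1 of 1 µM melatonin alone had 1819 CPM for the 50 genes, against 3151 and 3056 CPM, and 4783 CPM for the macrophage markers, against 13150 and 13290 CPM. In both measures the 1 µM library lay near the 1 mM libraries and the 1 mM library near solvent, where the macrophage markers summed to 13050 to 13710 CPM. The labels were kept, and results that rest on these libraries are given with and without them. Over all genes the library labelled replicate 3 of LPS with 1 mM melatonin was farthest from its group, with a chi-square for each degree of freedom of 41.3 and 40.5 against the other libraries of that group, which differed from each other by 15.1. It had the fewest counts (4203313) and 578 CPM of Csf1r, against 1570 and 1508 CPM in the others, whereas its summed level of the 50 genes was 1396 CPM, against 1353 and 1414 CPM in the others.

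In solvent-treated cells the level of the 50 genes per kilobase, over the gene lengths that the deposited FPKM values imply, spanned a wide range. Pcna, the sliding clamp, was highest at 192 ± 12.0 CPM per kb (SD, n = 3), followed by Uhrf1, which guides DNA methylation to new strands, at 81.3 ± 5.82 CPM per kb, and the helicase subunit Mcm3 at 65.9 ± 5.34 CPM per kb. These 3 levels were separated by more than the spread of the libraries, whereas the next in order, Gins3 (49.3 ± 5.15 CPM per kb) and Rpa3 (42.9 ± 9.84 CPM per kb), were not separated from each other, nor were Mcm5 (36.2 ± 2.82 CPM per kb) and Mcm6 (35.2 ± 3.91 CPM per kb). At the low end stood Ccne2 (1.34 ± 0.788 CPM per kb), Pole2 (1.04 ± 0.950 CPM per kb) and Gins2 (0.744 ± 0.440 CPM per kb). Fen1, the flap endonuclease that trims Okazaki fragments (chromosome 19, 10199132 to 10204169, mm10, minus strand), had 33 counts in all 36 libraries together and 0 in 9 of the groups, solvent and LPS among them. Of its exonic bases, 84.2% lie within genes annotated on the opposite strand, and the strand setting of the counting is not given in the sources used here, so reads of Fen1 and of those genes cannot be told apart. It was too low to be tested, which left 49 genes. For Gins2 the shared fraction was 67.3% and for Chaf1a 52.5%, and the levels of both are uncertain for the same reason. Genes named as pseudogenes of Pcna and Tyms also took counts (17345 on Pcna-ps2 and 1745 on Tyms-ps over all libraries). The levels of Pcna and Tyms may therefore depend on how shared reads were assigned. Such copies were sought by name only, so copies of other genes under other names would be missed. Genes annotated as processed pseudogenes took 19.5% to 21.5% of the counts of a library.

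Promoter windows from RefSeq (GRCm38.p6, 250 bases before to 50 after each annotated start) were given for 41 of the 50 genes, in 48 windows. The core of the E2F motif, TTCCCGC or TTGGCGC on either strand, was present in 24 of the 48 windows (50%), against 6.8% of all 32851 windows and 8.7% of the 21263 windows of protein-coding genes. The CCAAT box, CCAAT on either strand, was present in 56.2% of member windows, 37.4% of all windows and 38.2% of those of protein-coding genes. The GC box GGGCGG was in 75.0%, 35.7% and 46.2% of them, and the cell cycle homology region, TTTGAA or TTCGAA, in 16.7%, 19.2% and 17.6%. The member windows were also richer in G and C, with a median of 61.3%, against 52.7% and 56.3%. The motifs were searched separately and can overlap each other, and a match describes the letters only. Stretches of 180 bases are shown for 5 genes whose levels with melatonin are described further on, from 150 bases before the annotated start to 30 bases from it, 5′ to 3′ on the strand of the gene, with E2F cores in capitals, and for Rfc5, whose window held none. Of genes with several windows, Uhrf1 is shown at the start whose window held a core, the other holding none, and Lig1, with a core in 1 of 3 windows, is not shown, nor is Mcm10, with none.
Mcm6, chr1:128359676-128359855, minus strand: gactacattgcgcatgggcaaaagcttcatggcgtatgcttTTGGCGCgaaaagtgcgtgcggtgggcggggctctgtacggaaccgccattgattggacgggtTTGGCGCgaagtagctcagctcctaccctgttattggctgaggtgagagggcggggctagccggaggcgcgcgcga
Mcm5, chr8:75109359-75109538, plus strand: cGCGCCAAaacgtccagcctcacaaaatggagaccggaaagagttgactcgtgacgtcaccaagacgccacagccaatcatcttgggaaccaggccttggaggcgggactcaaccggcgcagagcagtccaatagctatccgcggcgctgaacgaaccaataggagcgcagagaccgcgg
Prim1, chr10:128015065-128015244, plus strand: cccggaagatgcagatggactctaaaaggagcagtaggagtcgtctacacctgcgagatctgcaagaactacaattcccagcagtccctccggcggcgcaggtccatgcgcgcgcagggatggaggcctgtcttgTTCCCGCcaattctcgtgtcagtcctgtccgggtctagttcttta
Rrm1, chr7:102441545-102441724, plus strand: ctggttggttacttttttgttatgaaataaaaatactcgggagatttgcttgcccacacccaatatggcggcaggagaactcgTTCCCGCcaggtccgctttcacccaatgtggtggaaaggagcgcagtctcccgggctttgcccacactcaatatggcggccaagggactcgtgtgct
Uhrf1, chr17:56303187-56303366, plus strand: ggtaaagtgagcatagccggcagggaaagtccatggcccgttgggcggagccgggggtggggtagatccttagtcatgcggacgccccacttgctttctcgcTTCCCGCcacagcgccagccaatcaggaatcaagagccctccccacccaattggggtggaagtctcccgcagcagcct
Rfc5, chr5:117388994-117389173, minus strand: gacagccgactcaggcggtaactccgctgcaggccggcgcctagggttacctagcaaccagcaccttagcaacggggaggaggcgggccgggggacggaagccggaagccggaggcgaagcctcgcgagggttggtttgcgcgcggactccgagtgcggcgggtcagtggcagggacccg
The matches in Mcm6 begin 109 and 46 bases before the start, that in Mcm5 149 bases before it, and those in Rrm1, Uhrf1 and Prim1 67, 48 and 15 bases before it.

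LPS was compared with solvent to ask how cells without melatonin responded at 12 h. Of the 49 tested, 38 fell and 0 rose, where 8.09% of all 16988 tested genes fell (edgeR quasi-likelihood test, Benjamini-Hochberg adjusted p under 0.05), and all 49 had a log2 fold change below 0. The median log2 fold change of the 49 was -1.89, against -0.02 for all tested genes. The summed level of the 50 genes was 1007, 915 and 938 CPM in the LPS libraries, against 3176, 3126 and 3042 CPM in the solvent libraries, and the groups did not overlap. For 37 of the 49 genes every LPS library was below every solvent library, where 15.6% of all tested genes were. In bulk RNA, fewer cells in S phase and less of these transcripts per cell cannot be told apart. The Malat1, Neat1 and Kcnq1ot1 transcripts, which are retained in the nucleus and vary with RNA quality, summed to 2552 to 3075 CPM with LPS, against 4200 to 4659 CPM in solvent, and the 10 macrophage markers to 13330 to 13510 CPM with LPS, against 13050 to 13710 CPM in solvent. Within that list Cd14, Adgre1 and Ptprc rose (log2 fold changes 2.45, 1.85 and 0.39), Csf1r and Tyrobp fell (-1.71 and -0.86), and 5 did not pass. The part of these transcripts in the result was not tested. Of the 38 calls, 31 held under every alternative processing and with each library left out in turn.

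**Figure D1:**
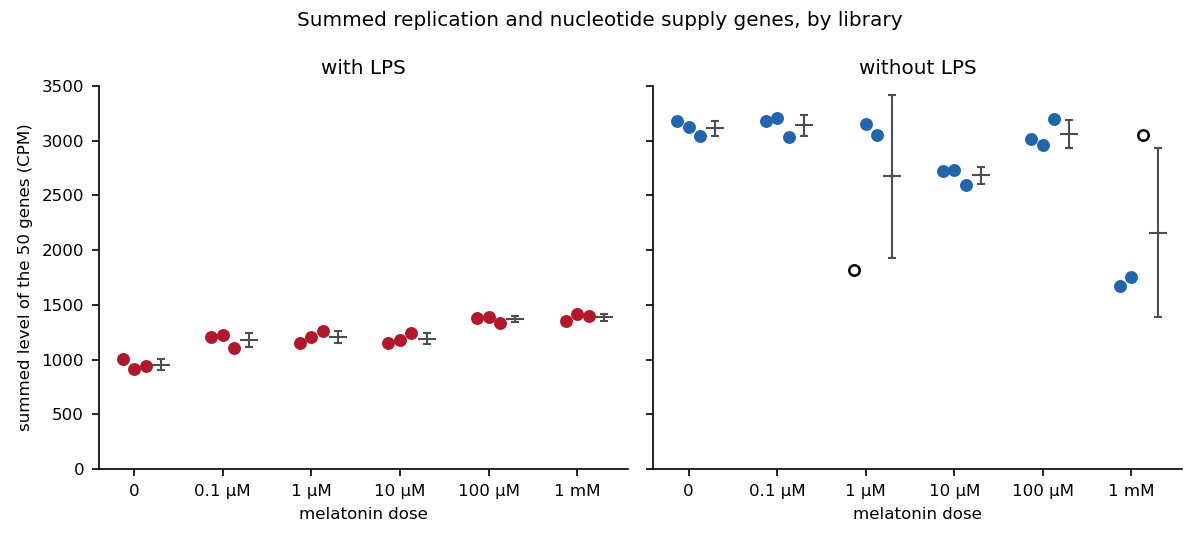
Summed level of the 50 genes in CPM (vertical axis, from 0) in each library by melatonin dose (horizontal axis), with LPS on the left and without LPS on the right; points are libraries, bars are mean ± SD of 3, and open points mark the library labelled replicate 1 of 1 µM melatonin alone and that labelled replicate 3 of 1 mM melatonin alone. All libraries with LPS lie between 915 and 1414 CPM and all without LPS between 1669 and 3209 CPM.

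Of the 12 genes of the replicative helicase and the factors that load it, 8 fell, with a median log2 fold change of -1.46, and these were all 6 subunits of the Mcm2-7 ring, Mcm10, which helps to activate it, and Gins3. Mcm6 (chromosome 1, 128331590 to 128359664, mm10, minus strand), a subunit of the ring, had 12.7, 28.2 and 26.8 CPM with LPS, against 183, 163 and 147 CPM in solvent. Its levels with LPS all lay far below those in solvent, a log2 fold change of -2.86 ± 0.25 (SE, adjusted p = 2.14e-12). Mcm5, another subunit of the ring, had 19.7, 31.7 and 39.6 CPM with LPS, against 147, 155 and 132 CPM in solvent (-2.25 ± 0.26, adjusted p = 5.13e-09). The remaining subunits fell less, by 1.40 (Mcm3), 1.45 (Mcm2), 1.47 (Mcm7) and 1.51 (Mcm4) on the log2 scale, and the libraries of Mcm7 overlapped, with 16.5, 4.80 and 5.09 CPM with LPS and 13.9, 26.1 and 33.4 CPM in solvent. The call of Mcm7 was lost without LPS replicate 2 or 3 or solvent replicate 2 or 3 (adjusted p up to 0.199). The partners of the active helicase were low and scattered. Cdc45, which joins the ring when origins fire, had 12.6, 1.31 and 5.40 CPM with LPS, against 8.33, 5.65 and 10.2 CPM in solvent (-0.33 ± 0.69, adjusted p = 0.836). Among the GINS subunits only Gins3 passed (-2.56), with 36.6, 10.8 and 20.5 CPM with LPS, against 135, 119 and 147 CPM in solvent, while Gins1, Gins2 and Gins4 had log2 fold changes of -0.96, -1.26 and -0.87 that did not pass.

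Origin licensing genes fell in 4 of 5 cases, with a median log2 fold change of -1.11. Gmnn encodes geminin, which blocks Cdt1 outside G1, and had 5.31, 10.9 and 8.79 CPM with LPS, against 38.4, 27.0 and 42.6 CPM in solvent (-2.11 ± 0.46, adjusted p = 0.000537). Cdc6, a helicase loader, had 0.607, 2.77 and 1.85 CPM with LPS, against 14.3, 11.6 and 20.7 CPM in solvent (-3.14 ± 0.72, adjusted p = 0.00114). In neither gene did the groups overlap. Orc6 and Cdt1 fell by 1.11 and 0.72 on the log2 scale, the calls being lost without solvent replicate 3 for Orc6 (adjusted p = 0.0604) and, for Cdt1, without LPS replicate 2 or 3 or solvent replicate 1 or 2 (adjusted p up to 0.189). Orc1, the large subunit of the origin recognition complex, had 8.80, 3.35 and 2.78 CPM with LPS, against 5.61, 9.42 and 6.14 CPM in solvent, and its groups overlapped (-0.50 ± 0.75, adjusted p = 0.742).

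The clamp and its loader fell in 5 of 6 cases, with a median of -1.47. Rfc5, a subunit of the loader (chromosome 5, 117378103 to 117389047, mm10, minus strand), had 11.5, 7.86 and 10.0 CPM with LPS, against 68.5, 54.2 and 34.9 CPM in solvent (-2.42 ± 0.35, adjusted p = 5.9e-07). Pcna itself, the most abundant of the genes per kilobase, had 187, 235 and 181 CPM with LPS, against 493, 444 and 443 CPM in solvent, a smaller change of -1.20 ± 0.19 (adjusted p = 2.83e-06). Both genes had every LPS library below every solvent library. Rfc1, Rfc2 and Rfc3 fell by 0.96, 1.66 and 1.39 on the log2 scale. Rfc4 had 7.43, 1.16 and 4.32 CPM with LPS, against 15.6, 11.8 and 10.3 CPM in solvent, without overlap but with a scatter that kept it from passing (-1.54 ± 0.79, adjusted p = 0.199).

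Among polymerases and primase, 5 of 9 fell, with a median of -1.97. The genes of the primase and polymerase alpha complex all fell: the primase subunits Prim1 and Prim2 and the polymerase subunits Pola1 and Pola2, by 3.41, 1.97, 2.50 and 0.90 on the log2 scale. Prim1, the catalytic primase subunit (chromosome 10, 128015168 to 128030037, mm10, plus strand), had 2.88, 3.06 and 2.78 CPM with LPS, against 37.9, 25.8 and 29.4 CPM in solvent (-3.41 ± 0.44, adjusted p = 8.06e-08). The call of Pola2 was lost without LPS replicate 3 or solvent replicate 1 or 3 (adjusted p up to 0.141). Pole, the catalytic subunit of the leading-strand polymerase, had 1.37, 2.33 and 3.70 CPM with LPS, against 29.7, 31.9 and 35.2 CPM in solvent (-3.70 ± 0.51, adjusted p = 2.42e-07). Its partner Pole2 and the 3 subunits of the lagging-strand polymerase delta that belong to the set did not pass. Pold3 had 19.7, 11.4 and 26.5 CPM with LPS, against 21.6, 26.2 and 24.0 CPM in solvent, with overlapping groups (-0.32 ± 0.33, adjusted p = 0.604), and Pold1 and Pold2 had log2 fold changes of -2.21 and -0.56.

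Of the single-strand binding and strand-joining genes, 3 of the 4 that could be tested fell, with a median of -1.63. Lig1, the ligase that seals Okazaki fragments (chromosome 7, 13277283 to 13311433, mm10, plus strand), had 5.01, 4.22 and 4.16 CPM with LPS, against 48.3, 34.2 and 34.3 CPM in solvent (-3.12 ± 0.45, adjusted p = 6.25e-07). Rpa2, the middle subunit of the single-strand binding protein RPA, had 14.7, 15.1 and 21.1 CPM with LPS, against 43.7, 66.3 and 65.8 CPM in solvent (-1.79 ± 0.33, adjusted p = 4.57e-05). Both were separated by group. The small subunit Rpa3 fell to 21.4, 15.4 and 15.4 CPM with LPS, against 60.7, 47.0 and 38.5 CPM in solvent (-1.48 ± 0.30, adjusted p = 0.000206), whereas the large subunit Rpa1 had 19.7, 18.9 and 28.5 CPM with LPS, against 26.2, 39.6 and 35.96 CPM in solvent, with overlap (-0.60 ± 0.28, adjusted p = 0.151).

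All 6 genes of nucleotide supply and uracil removal fell, with a median of -2.68. Rrm1, the large subunit of ribonucleotide reductase, had 28.2, 29.7 and 42.3 CPM with LPS, against 145, 134 and 124 CPM in solvent (-2.01 ± 0.25, adjusted p = 3.93e-08). Rrm2, its small subunit, had 27.2, 9.61 and 26.1 CPM with LPS, against 90.9, 94.7 and 89.1 CPM in solvent (-2.13 ± 0.31, adjusted p = 7.02e-07). Every LPS library was below every solvent library in both. The enzymes specific to thymidine nucleotides and dUTP fell further: thymidylate synthase Tyms, thymidine kinase Tk1 and the dUTPase Dut, by 3.22, 3.27 and 3.07 on the log2 scale, with Dut at 6.98, 2.91 and 2.31 CPM with LPS, against 35.9, 36.1 and 30.6 CPM in solvent. Ung, the uracil-DNA glycosylase, had 1.82, 0.873 and 6.79 CPM with LPS, against 11.2, 14.9 and 20.7 CPM in solvent (-2.30 ± 0.61, adjusted p = 0.00541), a call lost without LPS replicate 2 (adjusted p = 0.0578).

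The 3 chromatin genes fell, with a median of -2.30. Uhrf1 (chromosome 17, 56303321 to 56323486, mm10, plus strand) had 64.5, 83.0 and 63.7 CPM with LPS, against 329, 335 and 375 CPM in solvent (-2.30 ± 0.23, adjusted p = 1.45e-10). Chaf1b, a subunit of the histone chaperone CAF-1, had 0, 2.77 and 0.154 CPM with LPS, against 13.8, 14.3 and 10.0 CPM in solvent (-3.67 ± 0.87, adjusted p = 0.00164). These 2 genes were separated by group. Chaf1a, its partner, had 12.4, 1.89 and 2.01 CPM with LPS, against 9.85, 32.98 and 17.7 CPM in solvent, so its libraries overlapped (-1.89 ± 0.54, adjusted p = 0.00931), and its call was lost without LPS replicate 2 or 3 or solvent replicate 2 and in a fit of only these 6 libraries (adjusted p up to 0.13).

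The 4 genes of the S phase trigger all fell, with a median of -2.34. E2f1, an activator of replication genes, had 16.4, 10.9 and 17.6 CPM with LPS, against 46.0, 52.3 and 41.1 CPM in solvent (-1.63 ± 0.31, adjusted p = 7.37e-05). E2f2, a related activator, had 6.52, 7.57 and 14.0 CPM with LPS, against 42.8, 28.4 and 39.7 CPM in solvent (-1.98 ± 0.38, adjusted p = 0.000104). Neither gene overlapped between groups. Ccne2, which encodes cyclin E2, a partner of Cdk2 at the start of S phase (chromosome 4, 11191351 to 11204779, mm10, plus strand), had 0 counts in the 3 LPS libraries, against 2.89, 7.85 and 3.30 CPM in solvent. It was at least 31.2-fold lower with LPS, the bound being set by 3 counts over the 3 LPS libraries (adjusted p = 0.000665). Ccne1, for cyclin E1, had 4.55, 1.75 and 0.154 CPM with LPS, against 7.31, 22.3 and 12.7 CPM in solvent (-2.70 ± 0.85, adjusted p = 0.0203), and lost its call without LPS replicate 2 or 3 or solvent replicate 2 (adjusted p up to 0.115).

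**Figure D2:**
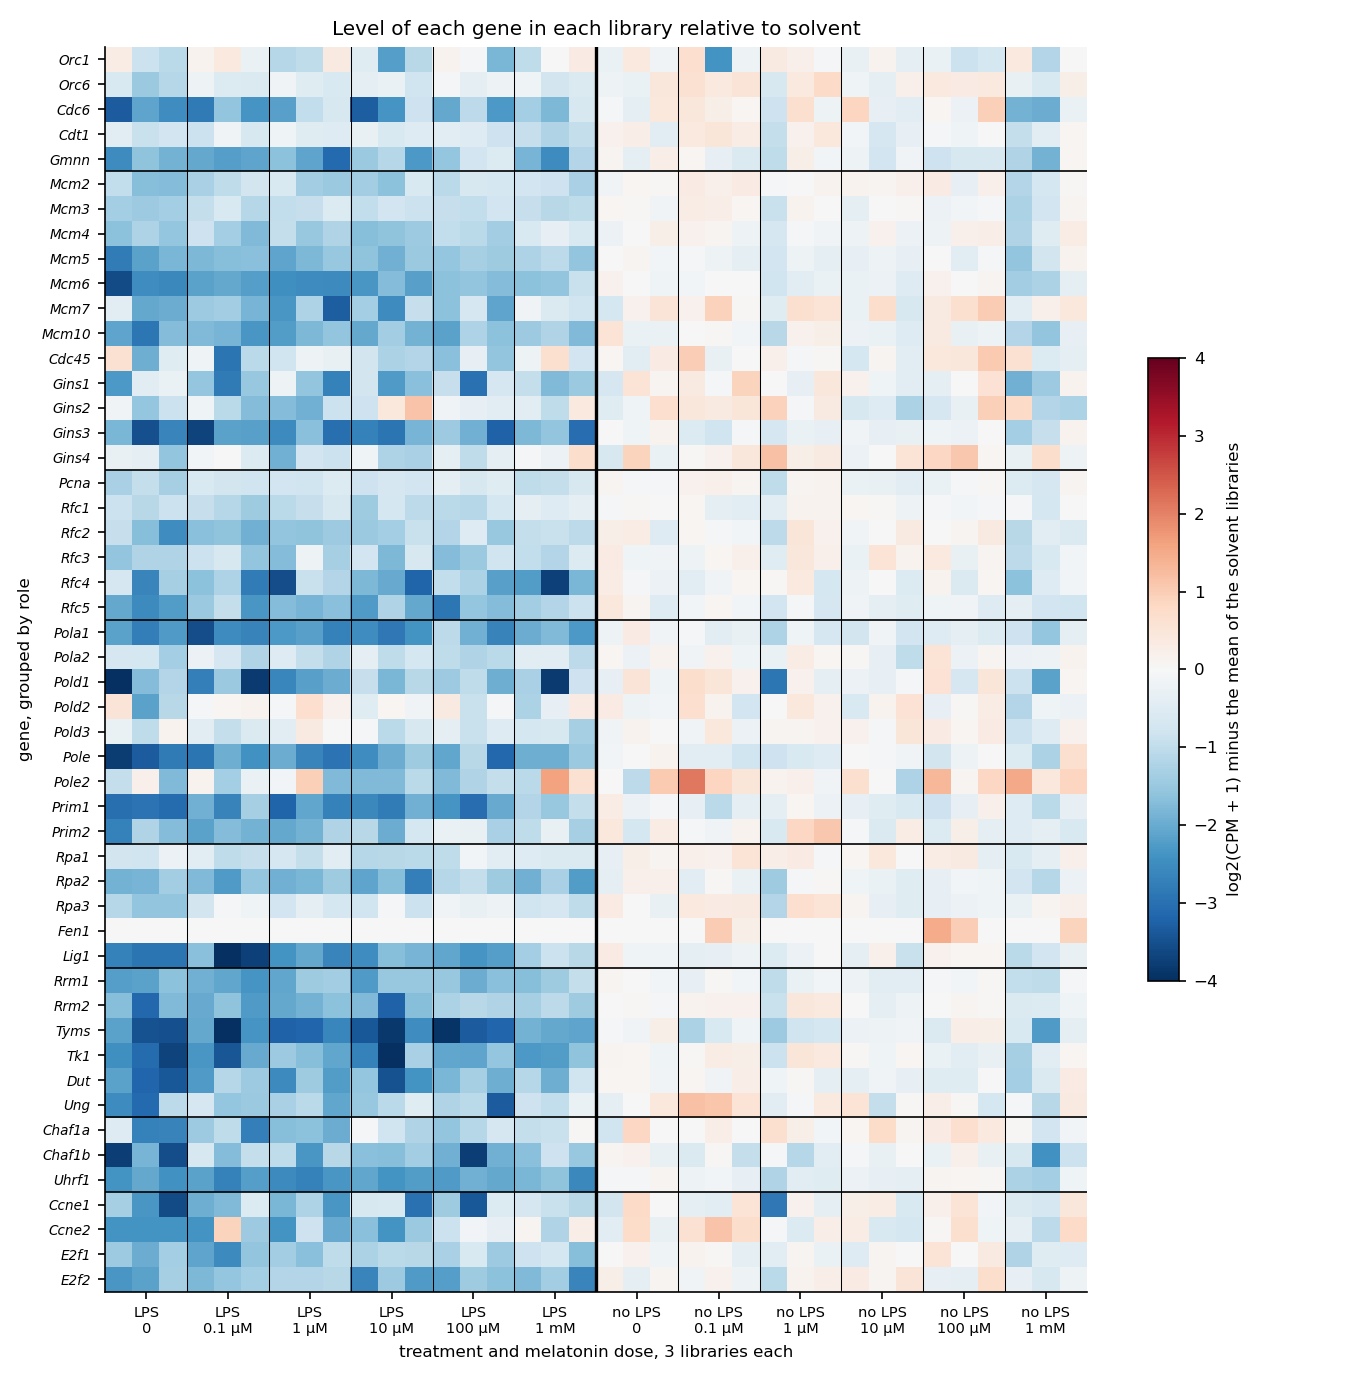
Level of each of the 50 genes (rows, grouped by role) in each of the 36 libraries (columns, 3 per dose, with LPS left of the thick line and without LPS right of it) as log2(CPM + 1) minus the mean of the 3 solvent libraries. Blue fills most of the left side, the rows of Orc1, Pold2, Pole2, Gins2 and Fen1 excepted, and also appears on the right in the libraries labelled replicates 1 and 2 of 1 mM melatonin alone and replicate 1 of 1 µM melatonin alone.

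Genes of the same pathway outside the set were examined as lists, in a comparison in which 8.09% of all tested genes fell and 8.4% rose. Of 37 fork and origin factors, 17 fell and none rose with LPS (median -1.05). Among them, Pclaf, a Pcna-binding factor, fell by 2.22 and Clspn, which encodes the checkpoint mediator claspin, by 3.03 on the log2 scale. Of 31 tested genes of G1/S control, 18 fell and 3 rose. Ccna2, for cyclin A2, had 34.4 ± 4.84 CPM with LPS and 226 ± 18.6 CPM in solvent (SD, n = 3 each), and the repressor E2f8 had 4.42 ± 0.802 CPM with LPS and 81.0 ± 19.0 CPM in solvent; Wee1, a kinase that restrains Cdk1, and Mycn fell by 4.72 and 2.05 on the log2 scale. The 3 that rose were Myc, at 66.5 ± 13.9 CPM with LPS and 6.24 ± 2.45 CPM in solvent, Cdk6 (log2 fold change 1.24) and the Cdk inhibitor Cdkn1a (0.45). Of 34 tested genes of nucleotide synthesis outside the set, 9 fell and 1 rose (median -0.33), with the ribose phosphate supplier Prps2 at -1.84, thymidylate kinase Dtymk at -1.40 and the purine enzyme Paics at -1.11, while the mitochondrial folate enzyme Mthfd2 rose by 0.82.

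The response to LPS was next measured at each melatonin dose against the same dose alone. These 6 comparisons, the one with solvent included, share no library. By edgeR no gene rose in any of them, none was higher at an unadjusted p under 0.05, and DESeq2 likewise called none higher. At 0.1 µM, 36 of the 49 genes fell, where 7.71% of all tested genes fell, with a median log2 fold change of -1.71. At 1 µM it was 33 (background 7.4%, median -1.40), at 10 µM 29 (background 7.65%, median -1.39) and at 100 µM 32 (background 7.72%, median -1.44). The median of all tested genes lay between -0.04 and 0 in these comparisons. Without the pair of libraries that stood apart, 35 fell at 1 µM (background 5.87%). At 1 mM only 8 fell (background 4.75%), with a median of -0.54, and without that pair only E2f2 (-1.45) and Uhrf1 (-0.63) passed (background 3.65%). The 2 libraries left for 1 mM melatonin alone had the low levels given above, so the level set against LPS was itself lower. Leaving out replicate 1 of 1 mM melatonin alone gave 14, and leaving out replicate 3 gave 2, and leaving out replicate 1 or 3 of LPS with 1 mM melatonin gave 5. A fit of only these 6 libraries called none. The share of all genes in these smaller fits is not given here.

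In all 5 comparisons other than that at 1 mM, 25 genes fell, where 3.23% of all tested genes did, and 7 of them fell in all 6, where 2.08% did: E2f2, Gins3, Pola1, Pole, Rpa2, Tk1 and Uhrf1. Uhrf1 had log2 fold changes between -2.30 and -1.12 over the 6 comparisons, Pole between -3.70 and -1.70, and Tk1 between -3.27 and -1.62. Without the pair of libraries that stood apart, E2f2 and Uhrf1 alone of these 7 passed at 1 mM. The log2 fold change there was then -0.63 for Uhrf1, -0.99 for Pole and -1.26 for Tk1. At 1 mM, Uhrf1 had 96.1, 114 and 57.3 CPM with LPS, against 143, 133 and 307 CPM with melatonin alone, the highest of these being the library labelled replicate 3. At the other end, 5 genes passed in none: Gins2, Orc1, Pold2, Pold3 and Pole2. Of the 49 genes, 47 had a log2 fold change closer to 0 at 1 mM melatonin than without melatonin, as did 56.6% of all tested genes.

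**Figure D3:**
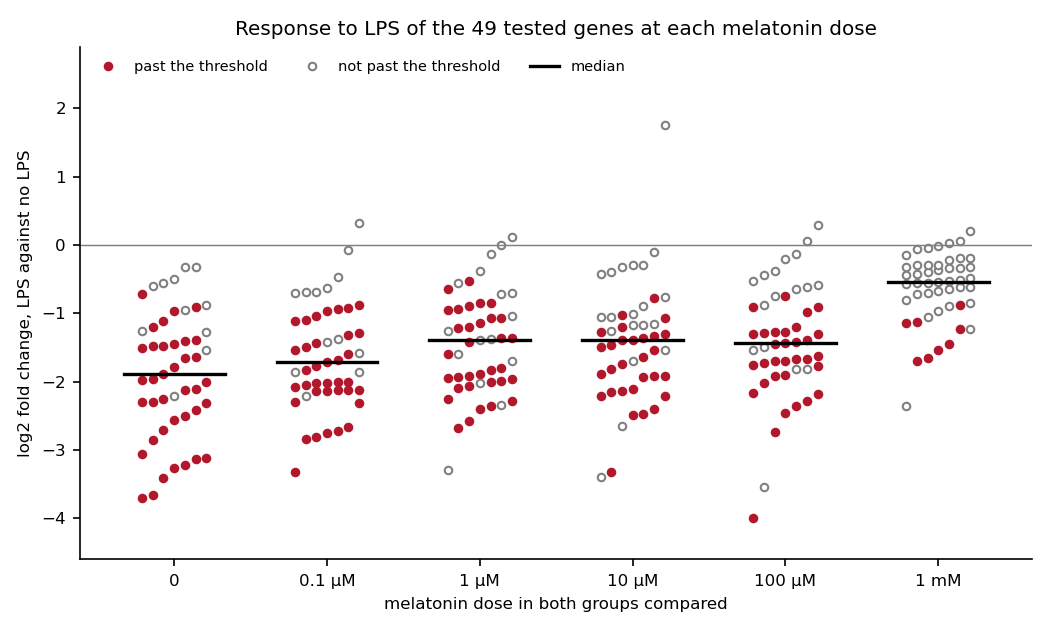
Log2 fold change of LPS against no LPS (vertical axis) for the tested genes at each melatonin dose given to both groups compared (horizontal axis); each point is a gene, filled red if past the adjusted threshold, and the black line is the median of 49, Ccne2 without melatonin being left undrawn because its LPS libraries had 0 counts. The medians lie between -1.89 and -1.39 up to 100 µM and at -0.54 at 1 mM.

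**Figure D4:**
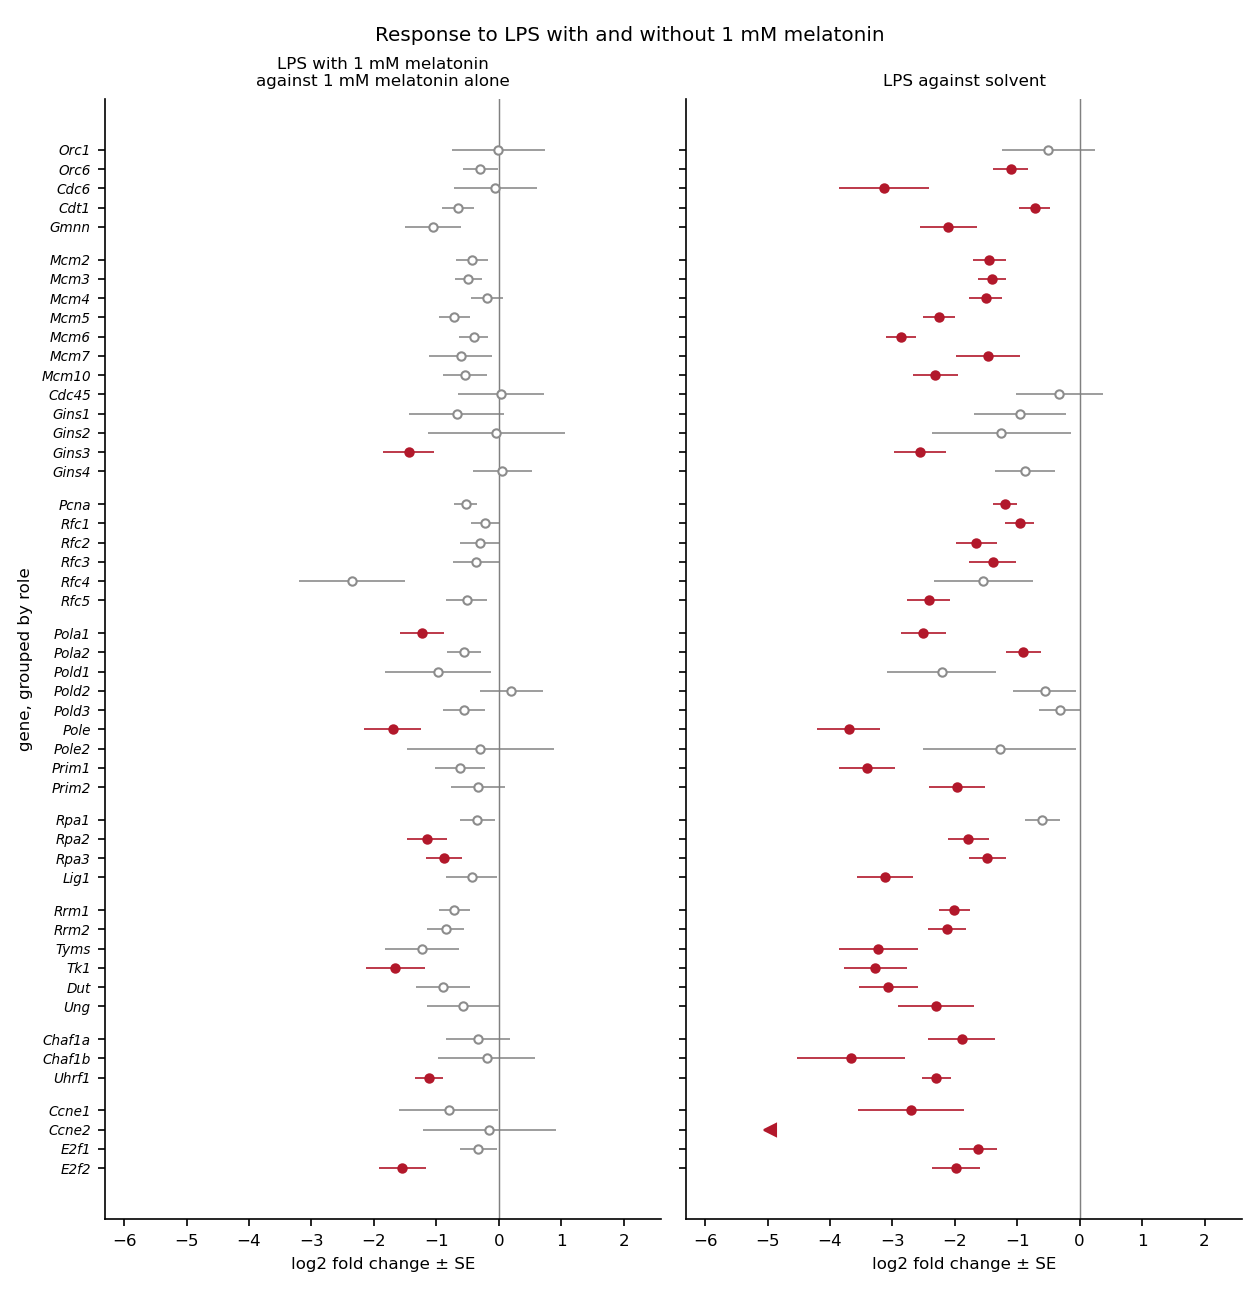
Log2 fold change ± SE of each tested gene (rows, grouped by role), for LPS with 1 mM melatonin against 1 mM melatonin alone on the left and LPS against solvent on the right; red filled points passed the threshold, and the triangle for Ccne2 marks its bound. On the right 38 genes passed, on the left 8, and most points on the left lie closer to 0.

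Adding melatonin to LPS was compared with LPS alone. With 1 mM melatonin 9 of the 49 genes were higher and none lower, where 2.84% of all tested genes were higher, and the median log2 fold change was 0.63, against 0.02 for all genes. The 9 were the helicase subunits Mcm4, Mcm5 and Mcm6, the clamp loader subunit Rfc5, the primase subunit Prim1, Pole, Lig1, Dut and Ccne2. Mcm6 had 51.3, 53.8 and 88.0 CPM with LPS and 1 mM melatonin, against 12.7, 28.2 and 26.8 CPM with LPS (1.505 ± 0.24, adjusted p = 1.72e-05). Prim1 had 13.2, 10.1 and 15.2 CPM with both agents, against 2.88, 3.06 and 2.78 CPM with LPS (2.13 ± 0.43, adjusted p = 0.000703). Lig1 had 14.4, 20.7 and 17.2 CPM with both agents, against 5.01, 4.22 and 4.16 CPM with LPS (1.96 ± 0.44, adjusted p = 0.00215). In these 3 genes the groups did not overlap, and their levels with both agents still lay below every solvent library. Every library with both agents lay above every LPS library for 21 of the 49 genes, where 10.4% of all tested genes did. The reverse held for 1 gene, where it held for 11.2% of all tested genes. Ccne2 had 4.75, 1.30 and 5.39 CPM with both agents and 0 counts with LPS, a level at least 25.4-fold higher.

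Mcm5 had 61.0, 69.9 and 48.1 CPM with LPS and 1 mM melatonin, against 19.7, 31.7 and 39.6 CPM with LPS (0.98 ± 0.26, adjusted p = 0.0101), and Mcm4 had 55.8, 68.9 and 55.9 CPM with both agents, against 27.0, 36.2 and 28.5 CPM with LPS (0.98 ± 0.26, adjusted p = 0.0116). Rfc5 had 18.9, 21.9 and 27.3 CPM with both agents, against 11.5, 7.86 and 10.0 CPM with LPS (1.21 ± 0.34, adjusted p = 0.0191). None of these 3 overlapped between groups. Pole had 7.51, 7.63 and 11.0 CPM with both agents, against 1.37, 2.33 and 3.70 CPM with LPS (1.81 ± 0.49, adjusted p = 0.0146), and Dut had 15.02, 8.06 and 19.4 CPM with both agents, against 6.98, 2.91 and 2.31 CPM with LPS (1.79 ± 0.47, adjusted p = 0.00967). Mcm6, Prim1 and Lig1 held their calls under all 13 alternatives and Ccne2 under the 12 in which it was tested, since it was too low to enter the fit of only these groups, whereas the other 5 lost theirs in 3 or 4 of 13 alternatives, among them leaving out LPS replicates 1, 2 or 3 and replicates 2 or 3 of LPS with 1 mM melatonin (adjusted p up to 0.163). Fitting only these 6 libraries called 4. Without the library labelled replicate 3 of LPS with 1 mM melatonin 6 were higher. The 10 macrophage markers summed to 3573 to 4605 CPM with both agents and 13330 to 13510 CPM with LPS. Of them 6 were lower and none higher, with Lyz2 at 1388 ± 73.0 CPM with both agents and 8250 ± 159 CPM with LPS and Cd14 at 660 ± 51.4 CPM with both agents and 2314 ± 109 CPM with LPS (SD, n = 3 each). The markers Cd68, Spi1, Tyrobp and Csf1r did not pass (log2 fold changes 0.07, 0.20, -0.03 and -0.34). The nuclear transcripts summed to 3182 to 5195 CPM with both agents and 2552 to 3075 CPM with LPS. The part of both lists in the result was not tested.

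At lower doses few of the genes passed. With 100 µM melatonin 4 were higher than with LPS alone (background 0.636%, median 0.56): Mcm6, Pcna, Rpa3 and Ccne2. Mcm6 had 52.1, 54.4 and 48.1 CPM with LPS and 100 µM melatonin, against 12.7, 28.2 and 26.8 CPM with LPS (1.19 ± 0.24, adjusted p = 0.00338). Pcna had 348, 293 and 328 CPM with both agents, against 187, 235 and 181 CPM with LPS (0.69 ± 0.18, adjusted p = 0.0494), and Rpa3 had 43.5, 39.1 and 41.9 CPM with both agents, against 21.4, 15.4 and 15.4 CPM with LPS (1.25 ± 0.30, adjusted p = 0.0184). Ccne2 had 1.94, 3.94 and 3.19 CPM with both agents, at least 20.2-fold above LPS. Each of these 4 calls was lost when one or more single libraries were left out, with 1 call left without LPS replicate 1 or 3 and 2 left without LPS replicate 2 or replicate 1 of LPS with 100 µM melatonin.

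With 10 µM and with 1 µM melatonin the edgeR test called none of the 49 (backgrounds 0.194% and 0.294%). DESeq2 likewise called 0 at both doses. At an unadjusted p under 0.05, 10 genes were higher and 1 lower at 10 µM, and 11 were higher and 0 lower at 1 µM. The share of all genes at that unadjusted threshold was not counted. Leaving out LPS replicate 1 or 2 gave 1 call at 10 µM, and leaving out replicate 2 gave 1 at 1 µM. With 0.1 µM, Rpa3 and Ccne2 were higher (background 0.653%). Rpa3 had 28.3, 45.1 and 42.2 CPM with LPS and 0.1 µM melatonin, against 21.4, 15.4 and 15.4 CPM with LPS (1.15 ± 0.30, adjusted p = 0.0374). Ccne2 had 0, 8.79 and 0.917 CPM there, so that 1 library carried its mean. That mean was at least 21.6-fold above LPS, a bound that leaves out the spread among these libraries. Both calls were lost without any single LPS library and without replicate 2 of LPS with 0.1 µM melatonin. The comparisons at the 5 doses share the 3 LPS libraries and are not independent of each other.

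The summed level of the 50 genes with LPS was 954 ± 47.8 CPM without melatonin, 1180 ± 62.2 CPM at 0.1 µM, 1210 ± 54.5 CPM at 1 µM, 1192 ± 49 CPM at 10 µM, 1370 ± 28.4 CPM at 100 µM and 1388 ± 31.3 CPM at 1 mM (SD, n = 3 each). All libraries with melatonin lay above all LPS libraries, and those of the 2 highest doses above those of the 3 lower doses. The nuclear transcripts summed to 1736 to 2075 CPM at 0.1 µM, 2064 to 2168 CPM at 1 µM, 2233 to 2321 CPM at 10 µM, 2062 to 2418 CPM at 100 µM and 3182 to 5195 CPM at 1 mM with LPS, against 2552 to 3075 CPM with LPS alone, and their part was not tested. A slope over log10 dose from 0.1 µM to 1 mM with LPS was higher than 0 for 5 genes (background 2.38%) and lower for none: Mcm6 (0.25 ± 0.05 log2 units per 10-fold dose, adjusted p = 0.00126), E2f1 (0.24), Pola1 (0.25), Prim2 (0.36) and Lig1 (0.38). Mcm6 averaged 36.8, 28.1, 38.5, 51.5 and 64.4 CPM from the lowest to the highest dose, and Lig1 4.86, 6.79, 8.98, 7.54 and 17.4 CPM. E2f1 averaged 10.6, 17.8, 20.2, 21.3 and 22.4 CPM, Prim2 6.28, 7.62, 11.1, 17.7 and 14.5 CPM, and Pola1 7.06, 10.1, 8.78, 16.4 and 13.4 CPM. The last of these was lost in 10 of 18 alternatives, E2f1 in 5, and Mcm6 in none. The count was 2 without replicate 2 of LPS with 1 mM melatonin, and 3 without replicate 1 of that group, replicate 2 of LPS with 100 µM melatonin, or replicate 1 or 3 of LPS with 0.1 µM melatonin.

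Melatonin without LPS changed few of the genes against solvent. At 1 mM only Mcm6 fell (background 0.318%), with 61.2, 68.2 and 125 CPM, against 183, 163 and 147 CPM in solvent (-0.95 ± 0.23, adjusted p = 0.038), a call lost without solvent replicate 1, 2 or 3 or replicate 1 or 2 of 1 mM melatonin. Without replicate 3 of 1 mM melatonin alone, 6 genes fell, the share of all genes in that fit not being given here. The highest value of Mcm6 was the library labelled replicate 3. The median log2 fold change of the 49 genes was -0.53, against 0 for all genes, and 46 of the 49 lay below 0, where 49.8% of all tested genes did. Without the pair of libraries that stood apart, 9 fell (background 1.98%): Uhrf1 (-1.33), Mcm6 (-1.35), Mcm3 (-1.003), Mcm10 (-1.46), Mcm5 (-1.11), Mcm2 (-0.92), Rrm1 (-1.02), Pcna (-0.62) and Gmnn (-1.61). Uhrf1 then had 143 and 133 CPM with 1 mM melatonin, against 329, 335 and 375 CPM in solvent. Of the 10 macrophage markers Cd14 alone passed with all libraries, falling by 0.83 on the log2 scale, and their sum in these libraries was 5302 and 5171 CPM with 1 mM melatonin against 13050 to 13710 CPM in solvent. Their part in the result was not tested.

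No gene passed at 0.1, 1, 10 or 100 µM melatonin alone with edgeR, where 0.206%, 0.0824%, 0.0706% and 0.0235% of all genes fell, and DESeq2 called none of them higher or lower at these doses. At an unadjusted p under 0.05, 2 genes were lower at 1 µM and 0 were lower or higher at the other 3 doses. The share of all genes at that unadjusted threshold was not counted, and the 1 µM group holds a library that stood apart. The median log2 fold changes of the 49 genes were -0.04, -0.15, -0.22 and 0.04 at these doses. At 10 µM the summed level was 2720, 2734 and 2596 CPM, all below the solvent libraries at 3176, 3126 and 3042 CPM, with 40 of 49 genes below 0, where 49.6% of all tested genes were, and none past the threshold. The nuclear transcripts in these libraries summed to 5484 to 5570 CPM, against 4200 to 4659 CPM in solvent, and their part was not tested. The slope over log10 dose without LPS passed for no gene with edgeR (background 0.5%) or DESeq2. At an unadjusted p under 0.05, where the share of all genes was not counted, 7 genes had a slope below 0. The slope was lower than 0 for 5 genes without the library labelled replicate 3 of 1 mM melatonin alone. It was lower for 3 without that labelled replicate 1 of 1 µM melatonin alone. Without both it was lower than 0 for 10 genes (background 3.12%), among them Mcm3 (-0.27 log2 units per 10-fold dose), Cdt1 (-0.26) and Pcna (-0.18).

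Whether LPS acted differently in the presence of 1 mM melatonin was tested by the interaction, the LPS effect at 1 mM minus that without melatonin. It was above 0 for 10 genes and below 0 for none, where 0.63% of all genes were above 0, and the median of the 49 genes was 1.22, against 0.02 for all genes. Mcm6 had the lowest adjusted p (2.46 ± 0.33, adjusted p = 3.57e-06), since LPS changed it by -0.40 at 1 mM melatonin and by -2.86 without melatonin. Prim1 and Lig1 followed, with 2.79 ± 0.58 (adjusted p = 0.00409) and 2.68 ± 0.59 (adjusted p = 0.00763). Mcm4, Mcm5, Mcm10, Rfc5, Rrm1 and Uhrf1 had values of 1.18 to 1.91, and Ccne2 passed with a fitted value that is no bound because its LPS libraries were at 0. Mcm10 had 18.2, 21.6 and 14.4 CPM with LPS and 1 mM melatonin, against 22.0, 16.7 and 40.4 CPM with 1 mM melatonin alone, and 11.2, 6.11 and 14.8 CPM with LPS, against 75.4, 42.6 and 42.1 CPM in solvent. Rrm1 had 40.9, 49.5 and 69.2 CPM with both agents, against 66.6, 65.5 and 129 CPM with melatonin alone.

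The interaction holds the effect of 1 mM melatonin with LPS and that of 1 mM melatonin alone. With all libraries, Mcm6 passed for both, and no other gene passed for melatonin alone. For Prim1 and Lig1 the level with LPS was higher at 1 mM, while melatonin alone gave log2 fold changes of -0.66 and -0.72 against solvent that did not pass (adjusted p = 0.549 and 0.511). Uhrf1 passed for neither with all libraries. With LPS and 1 mM melatonin it had 96.1, 114 and 57.3 CPM, against 64.5, 83.0 and 63.7 CPM with LPS (log2 fold change 0.34, adjusted p = 0.422). With 1 mM melatonin alone it fell only once the pair that stood apart was left out (-1.33). Without the pair that stood apart the interaction was above 0 for 17 genes (background 1.07%), Mcm3 (1.39), Pcna (0.95), Dut (2.75), Pole (2.71), Mcm2 (1.42), Cdc6 (4.04) and Rrm2 (1.43) being the additional ones. Without replicate 3 of LPS with 1 mM melatonin it was above 0 for 8. Without replicate 1 or 2 of 1 mM melatonin alone it was above 0 for 5 or 4, without replicate 3 for 16, and without solvent replicate 1 or 2 or replicate 1 of LPS with 1 mM melatonin for 6. The share of all genes with a single library left out is not given here. Mcm6, Prim1 and Lig1 held in all 19 alternatives.

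**Figure D5:**
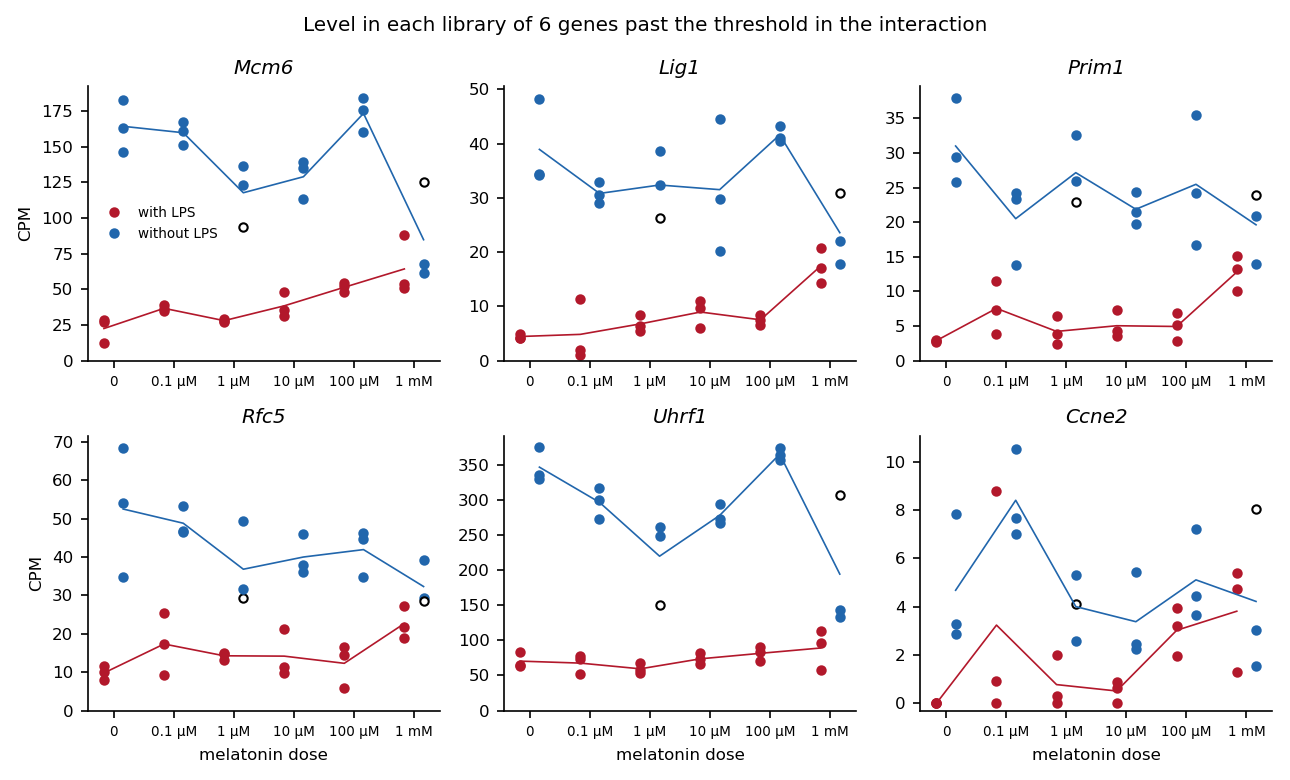
CPM of 6 genes past the threshold in the interaction (vertical axes) in each library by melatonin dose (horizontal axes), with LPS in red and without LPS in blue; lines join the means of 3 libraries and open points mark the 2 libraries that stood apart from their groups. Mcm6, Lig1 and Prim1 with LPS are highest at 1 mM, and Ccne2 is at 0 in the LPS libraries without melatonin.

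Outside the set, the pathway lists were examined for 1 mM melatonin added to LPS, a comparison in which 2.84% of all tested genes were higher and 4.71% lower. Of 37 fork and origin factors 5 were higher and 1 lower than with LPS alone, Clspn (1.21) and Wdhd1 (1.31) having the lowest adjusted p among the higher ones and Mcmbp (-0.999) being the lower. Of 31 genes of G1/S control 6 were higher and 2 lower. Mycn had 187 ± 33.7 CPM with both agents and 74.3 ± 21.4 CPM with LPS, and Wee1 had 9.64 ± 3.79 CPM with both agents and 1.598 ± 0.415 CPM with LPS (SD, n = 3 each), while Cdkn1a (-0.76) and Myc (-1.71) were lower. Of 34 nucleotide synthesis genes none was higher and 3 were lower, Samhd1, which degrades deoxynucleotides (-0.98), Mthfd2 (-0.58) and Shmt2 (-0.57).

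The genes varied together over all libraries but less within those with LPS, given here as a description. Over all 36 libraries the mean Pearson correlation of a gene's log2 CPM with the other 48 was highest for Rrm1 (0.74), Uhrf1 (0.74), Mcm6 (0.74) and Mcm5 (0.74) and lowest for Orc1 (0.14), Pold2 (0.20) and Gins2 (0.29). These points share the division of libraries by LPS. Within the 18 libraries without LPS, which include the libraries that stood apart, the mean for Rrm1 was 0.54 and for Uhrf1 0.53, and within the 18 with LPS 0.19 and 0.10. Over the tested genes the mean ran from -0.12 (Gins4) to 0.54 (Rrm1) without LPS. With LPS it ran from -0.13 (Cdt1) to 0.27 (Mcm5). The E2F core shown above was present in the windows of 19 of the 32 genes with a window that fell with LPS (59.4%) and of 4 of the 8 tested genes with a window that did not pass (50%). With 1 further T before the core it was present in 10 of the 32 and 3 of the 8. The CCAAT box was in 20 of the 32 and 4 of the 8, the GC box in 25 and 8, and the cell cycle homology region in 5 and 2.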

How the data were processed

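RNA of 36 libraries was measured by bulk RNA sequencing. Per the labels' protocols, Trizol was used to extract total RNA, and TruSeq chemistry from Illumina made the libraries. Per the submitters' processing notes, the authors used cutadapt for trimming and featureCounts for counting, with mm10 as the genome; versions, aligner, annotation release and strand setting are not given in the sources used here. The deposited counts are whole numbers per gene without scaling, and the deposited FPKM values, made by the authors, supplied symbols and an alternative scale for levels. Of the gene identifiers, 99.8% matched GENCODE M21, the source of mm10 positions. Every column of values belonged to a labelled library.

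Counts were fitted with edgeR 4.0.16 (limma 3.58.1, R 4.3.3): 16988 genes passed filterByExpr over the 12 groups, TMM factors were 0.914 to 1.19, and 1 quasi-likelihood model with a mean for each group covered all 36 libraries, so that every comparison uses the spread of all groups (common dispersion 0.266). Adjustment of the two-sided p-values followed Benjamini-Hochberg across the tested genes of a comparison, with a threshold of 0.05. CPM values use the scaled library sizes, and log2 CPM for correlations a prior count of 2. Alternatives were RLE scaling, no filter, DESeq2 1.42.0, protein-coding genes only, the replicate number as a block, only the groups compared, without the pair of libraries that stood apart, and each library left out in turn. Counts with a single library left out are given without the share of all genes, which can differ between fits. The fitting script was run on simulated counts with known changes as a check of the code. The simulated dispersion was below that of these data, and only genes above a set level were changed. That run therefore does not measure how well the calls hold here. Where a group had 0 counts, folds are bounds that set the mean of the other group against 3 counts over that group. They cover the counting error of the group at 0 only, not the spread among libraries.

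The members, gene lists, tests and alternatives were chosen with earlier results of these data known. Values in every library are given for the 2 genes with the lowest and the 1 with the highest adjusted p of each role group in LPS against solvent and for every gene past the threshold in a comparison of melatonin. Of the pathway lists, the rule was to name up to 4 genes per direction with the smallest adjusted p for LPS. For LPS with 1 mM melatonin against LPS it was up to 2. Fewer were named of the fork and origin factors and of the nucleotide synthesis genes that fell with LPS. All nucleotide synthesis genes lower with LPS and 1 mM melatonin than with LPS were named. A gene that falls under this rule and a marker are not reported here. Every pair of replicates differed by more than sampling noise, with a chi-square of 9.12 to 41.3 for each degree of freedom.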

Additional observations from a re-analysis of the deposited data

Results flagged for a closer look

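For 10 genes the effect of LPS at 1 mM melatonin differed from its effect without melatonin by the interaction test of the edgeR fit. The difference of log2 fold changes, the effect at 1 mM minus that without melatonin, was 2.46 for Mcm6 (adjusted p = 3.57e-06), 2.79 for Prim1, 2.68 for Lig1, 1.54 for Mcm5, 1.91 for Rfc5, 1.18 for Uhrf1, 1.30 for Rrm1, 1.32 for Mcm4 and 1.77 for Mcm10 (adjusted p = 0.049). For Ccne2 the fitted difference was 7.79, a value that depends on the prior count because its LPS libraries held 0 counts. The comparison includes the library labelled replicate 3 of 1 mM melatonin alone, and without it and the library labelled replicate 1 of 1 µM melatonin alone 17 genes passed. Over 19 alternatives Mcm6, Prim1 and Lig1 kept their calls in all. The call was lost in 2 for Mcm5, 4 for Rfc5, 8 for Rrm1, 9 each for Mcm4, Mcm10 and Ccne2, and 10 for Uhrf1.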

How the results depend on the processing

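The LPS comparisons other than that at 1 mM melatonin kept their member counts within 1.5 times under every alternative, LPS against solvent calling 33 to 39 lower. No call of a named gene reversed: over 2774 pairs of a called gene and an alternative, 2493 kept the call and 281 lost it.

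Counts of calls moved as follows. Without a filter on low counts, LPS at 1 mM melatonin against melatonin alone called 13 lower, LPS with 100 µM against LPS 7 higher and with 1 µM 1 higher, 1 mM alone against solvent 2 lower, and the slopes with and without LPS 9 higher and 1 lower. DESeq2 called 13 lower for LPS at 1 mM and 2 lower for 1 mM alone, which protein-coding genes alone also gave. With only the groups compared, LPS at 1 mM called 0 lower, 1 mM added to LPS 4 higher, 10 µM and 1 µM 2 higher each, 1 mM alone 0 lower, and the interaction 4 higher. Without the pair of libraries that stood apart, LPS at 1 mM called 2 lower, 1 µM added to LPS 2 higher, 1 mM alone 9 lower, the interaction 17 higher, and the slopes with and without LPS 10 higher and 10 lower. For the smaller fits and the alternatives with fewer libraries the number of libraries differs by construction; for the others the cause was not tested.

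With each library left out in turn, LPS at 1 mM called 2 to 14 lower, 0.1 µM, 1 µM, 10 µM, 100 µM and 1 mM added to LPS 0 to 2, 0 to 1, 0 to 1, 1 to 3 and 6 to 9 higher, 1 mM alone 0 to 6 lower, the interaction 4 to 16 higher, and the slopes with and without LPS 2 to 6 higher and 0 to 5 lower.

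Deviations of libraries from their group means correlated no better between libraries of the same replicate number (median r -0.001) than of other numbers (0.001), so the numbers were not taken to pair the samples. With the replicate block LPS against solvent called 36 lower, Cdt1 and Mcm7 not among them, the interaction 9 higher and the slope with LPS 4 higher. On the deposited FPKM scale 38 genes had every LPS library below every solvent library. Depth limits Fen1, Ccne2, Gins2, Pole2 and other genes of a few CPM, where a count of 0 allows up to 0.714 CPM.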
